A study of Mus musculus with 65 samples.

Results

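The 9 genes described here encode the calcium-activated phosphatase calcineurin, the NFAT transcription factors that it acts on, and the Rcan proteins that bind it. They were chosen by name, with earlier results of these data known, as Nfatc1, Nfatc2, Nfatc3, Nfatc4, Ppp3ca, Ppp3cb, Ppp3r1, Rcan1 and Rcan2. All 9 were measured among the 15469 genes of the RNA table. Calcineurin removes phosphate groups from NFAT proteins when calcium rises, which lets them enter the nucleus, and it also acts on MEF2 factors in neurons. Several kinases reverse the step by sending NFAT back to the cytoplasm, and Rcan1, whose internal promoter answers to NFAT, feeds back on the phosphatase. In the cerebellum, calcineurin and NFAT are known for their part in activity-dependent gene regulation as granule neurons mature.

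The study compared the cerebellum of conditional knockout mice (cKO) for the transcription factors MEF2A, MEF2D or both with that of Control mice. RNA-seq libraries came from MEF2A cKO, MEF2D cKO and MEF2AD cKO mice and from a Control group for each of these lines, with 4 libraries in each of the 6 groups. H3K27ac ChIP-seq, which marks active enhancers and promoters, had 3 libraries in each of the same 6 groups and 2 inputs, and MEF2A and MEF2D ChIP-seq entered as 2 deposited peak lists. All mice were of the C57BL/6 strain. The RNA and H3K27ac libraries came from females, with RNA taken at postnatal day 22, while the MEF2A and MEF2D ChIP libraries came from both sexes. The sources used here name neither the Cre driver nor the deleted part of either gene. Nothing in the labels says that the libraries of a group came from separate animals, so p-values measure the spread between these libraries only. The RNA titles carry the word Rotarod while the table is called baseline, and whether the mice were trained was not stated.

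RNA libraries held 9178139 to 23160475 reads and H3K27ac libraries 8694657 to 48557960. Mef2a RNA stood at 39.6% of the Control mean in MEF2A cKO and at 49.5% in MEF2AD cKO, with adjusted p-values from limma of 5.40e-14 and 1.69e-11. Mef2d RNA was not lower: it averaged 368 ± 13.2 CPM (reads scaled to a common library total) in MEF2D cKO and 323 ± 23.1 CPM in Control (SD, n = 4 each; adjusted p from limma = 0.165), and it was higher in MEF2AD cKO, at 371 ± 12.04 CPM against 298 ± 16.8 CPM (adjusted p from limma = 0.0170). A count over the whole gene need not reach the deleted part, so it does not check the Mef2d deletion, and MEF2D cKO and MEF2AD cKO mean throughout the libraries so labelled. Of the granule neuron markers, 1 of 15 was higher in MEF2A cKO, 1 higher and 3 lower in MEF2D cKO, and 1 higher and 1 lower in MEF2AD cKO. Gabra6 was the higher one in each line. Chn2, Vsnl1 and Slc17a7 were lower in MEF2D cKO, and Vsnl1 in MEF2AD cKO. Of all genes, 0.284%, 4.93% and 2.42% were called in MEF2A, MEF2D and MEF2AD cKO. The 15 summed to 10894 to 11856 CPM in MEF2A cKO, against 10995 to 11443 in Control. The sums were 11279 to 11428 in MEF2D cKO, against 11215 to 11769. They were lower in the MEF2AD line, at 8539 to 10705 in cKO, against 8591 to 10495.

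In bulk tissue, fewer cells of a type and less RNA per cell cannot be told apart. CPM values are not divided by gene length, so levels are compared between groups and never between genes. Changes in RNA are log2 differences of CPM + 1 between a cKO group and the Control group of its own line, tested with limma and called at an adjusted p-value under 0.05 over all genes.

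The promoters of the genes whose RNA or regulation is most tied to this route are printed for reference, as the 250 bases before the start of transcription in RefSeq (GRCm38.p6, the assembly that mm10 names), 5′ to 3′ on the strand of the gene. Capitals mark the NFAT core GGAAA or its reverse complement TTTCC. Nfatc2, on chromosome 2 from 168476410 to 168601657 on the minus strand, is shown at both of its starts because it was the member that fell in all 3 lines, and Rcan1 is shown at its internal promoter because that is the known NFAT-responsive start.
Nfatc2 promoter 1, chr2:168601658-168601907, minus strand: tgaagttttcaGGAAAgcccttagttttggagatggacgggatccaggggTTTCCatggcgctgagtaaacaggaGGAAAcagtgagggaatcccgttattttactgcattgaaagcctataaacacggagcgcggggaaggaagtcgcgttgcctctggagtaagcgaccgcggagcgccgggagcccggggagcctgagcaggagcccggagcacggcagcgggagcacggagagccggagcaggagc
Nfatc2 promoter 2, chr2:168590366-168590615, minus strand: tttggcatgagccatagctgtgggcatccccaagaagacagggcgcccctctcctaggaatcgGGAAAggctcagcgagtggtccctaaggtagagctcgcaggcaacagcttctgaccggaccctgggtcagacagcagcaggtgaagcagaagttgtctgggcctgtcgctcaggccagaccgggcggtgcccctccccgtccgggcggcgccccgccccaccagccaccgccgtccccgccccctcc
Rcan1 promoter 2, chr16:92400079-92400328, minus strand: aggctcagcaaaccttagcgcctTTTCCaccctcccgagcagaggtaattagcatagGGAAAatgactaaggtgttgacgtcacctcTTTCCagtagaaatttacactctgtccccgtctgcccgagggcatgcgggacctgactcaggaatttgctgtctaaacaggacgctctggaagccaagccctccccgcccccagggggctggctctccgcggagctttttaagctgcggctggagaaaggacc
The first Nfatc2 promoter held 3 such cores and the second held 1. The internal Rcan1 promoter held 3, while its other promoter held 0. At least 3 cores were found in 4 of the 12 promoters listed for 7 of the members, and in 6.39% of the 32851 promoters in the table. At least 1 core was found in 7 of the 12, against 55.6% of all. The MEF2 consensus, searched on both strands, matched 0 of the 12 member promoters and 2.92% of all promoters. A match describes the letters in this window only.

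Nfatc2 fell in all 3 knockout lines, Nfatc1 fell in MEF2D cKO, and the calcineurin subunits Ppp3cb and Ppp3r1 rose in MEF2D cKO by a smaller amount. Nfatc3, Nfatc4, Ppp3ca, Rcan1 and Rcan2 did not pass the test in any line. In MEF2A cKO 1 of 9 members was called and lower, where 0.284% of all genes were called and 0.129% were lower. With the replicate number as a block, Nfatc2 was still the member called there, and the genes called in the whole table came to 116 in place of 44. In MEF2D cKO 4 of 9 were called, 2 higher and 2 lower, where 4.93% of all genes were called, 2.59% higher and 2.33% lower. Without MEF2D Control 1 the members called came to 2 and the genes called to 308 in place of 762, without MEF2D cKO 4 the genes came to 331, and without MEF2D Control 3 to 490. In MEF2AD cKO 1 of 9 was called and lower, where 2.42% of all genes were called and 1.26% were lower. The members were chosen with earlier results of these data known, so counts beside shares are no test of enrichment. The median log2 difference over the members was −0.07, −0.09 and −0.01 in MEF2A, MEF2D and MEF2AD cKO, and over all genes it was 0.00 to 2 decimals in each.

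**Figure D1:**
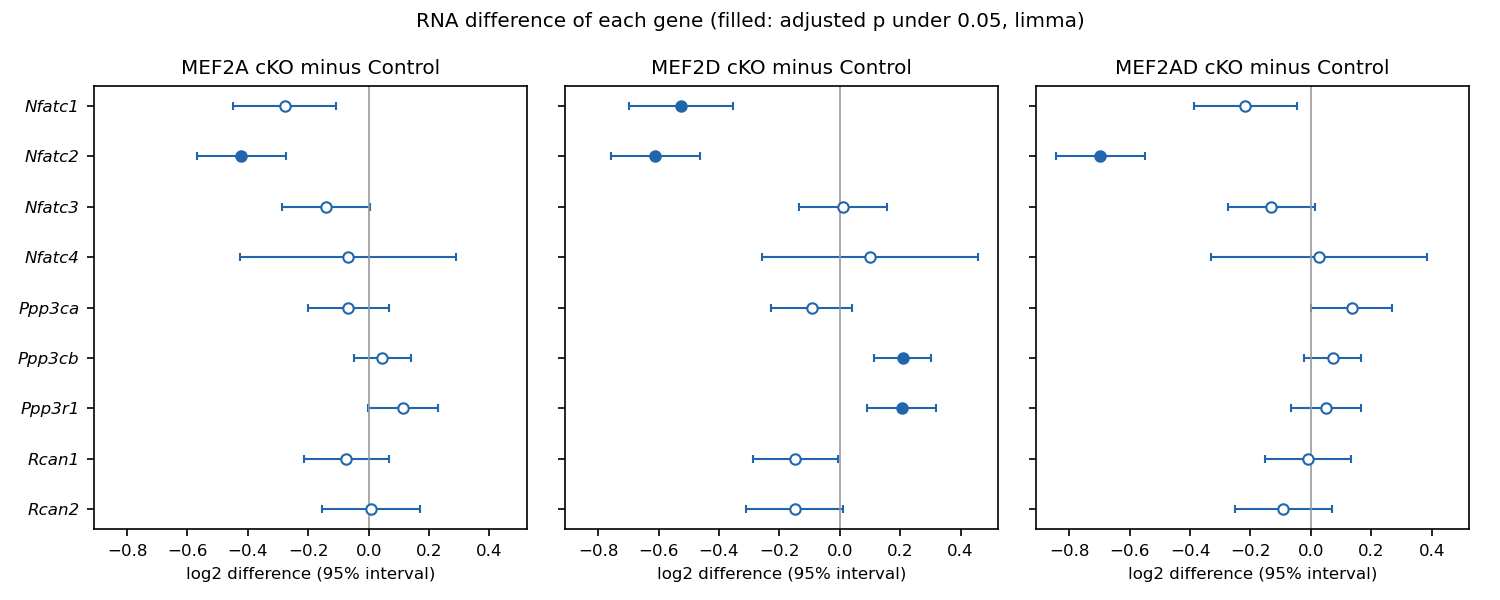
Log2 difference of CPM + 1 between each cKO group and its Control (horizontal axis) for the 9 members (vertical axis), with 95% intervals of the fit, one panel per knockout line. Nfatc2 lies left of 0 in every panel, at −0.42, −0.61 and −0.70.

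Among the NFAT factors, Nfatc2 (also called NFAT1, a factor best known from T cells) had 23.1, 22.8, 26.7 and 22.6 CPM in MEF2A cKO, against 32.9, 31.2, 30.4 and 34.1 CPM in Control. MEF2D cKO libraries had 19.1, 20.8, 20.1 and 16.8 CPM of it, against 31.6, 28.1, 28.3 and 31.3 CPM in Control. It had 20.6, 20.2, 20.3 and 24.2 CPM in MEF2AD cKO, against 35.7, 35.5, 34.8 and 34.5 CPM in Control. In each line every cKO library lay below every Control library. The 4th library of MEF2AD cKO and the 3rd of MEF2A cKO were the highest of their groups and still lay under the lowest Control.

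The means of Nfatc2 were 23.8 ± 1.95 CPM in MEF2A cKO and 32.2 ± 1.67 CPM in Control (SD, n = 4 each), which is 74.0% of Control. The log2 difference was −0.42 (95% interval −0.57 to −0.27; adjusted p from limma = 0.00377). In MEF2D cKO the mean was 64.4% of Control, with a log2 difference of −0.61 (−0.76 to −0.46; adjusted p from limma = 8.62e-06). In MEF2AD cKO it was 60.7% of Control, at −0.70 (−0.84 to −0.55; adjusted p from limma = 4.81e-07). With only the 8 MEF2A libraries in the fit, the MEF2A difference kept its size but had an adjusted p from limma of 0.0590. The authors' deposited table gives Nfatc2 a log2 fold change of −0.75 in MEF2AD against its own Control, with an adjusted p-value of 1.32e-07, and places it in gene cluster 3.

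The differences between the lines in how far Nfatc2 fell did not pass the test. The MEF2D effect minus the MEF2A effect was −0.19 (95% interval −0.40 to 0.02; adjusted p from limma = 0.738). The MEF2AD effect minus the MEF2A effect was −0.28 (−0.48 to −0.07; adjusted p from limma = 0.417), and minus the MEF2D effect it was −0.09 (−0.29 to 0.12; adjusted p from limma = 0.940). The MEF2AD effect was less negative than the sum of both single effects by 0.34 (0.08 to 0.59; adjusted p from limma = 0.305).

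Nfatc1 (NFATc1, a factor that is also needed in osteoclasts and heart valves) had 8.77, 9.20, 8.02 and 7.54 CPM in the MEF2D cKO libraries, against 12.5, 12.4, 11.6 and 13.5 CPM in its Control. Every MEF2D cKO library lay below every Control library. The log2 difference was −0.53 (95% interval −0.70 to −0.35; adjusted p from limma = 0.000391), and the mean was 67.1% of Control. The Nfatc1 call in MEF2D cKO and each of the 3 Nfatc2 calls held in 8 of 8 fits that left out 1 library of the line. In MEF2A cKO Nfatc1 had 10.01, 10.4, 11.3 and 9.39 CPM, against 13.6, 11.1, 12.6 and 13.5 CPM in Control, and the groups overlapped in 1 Control library. The log2 difference there was −0.28 (adjusted p from limma = 0.251).

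In MEF2AD cKO Nfatc1 had 9.63, 10.04, 8.10 and 9.25 CPM, against 11.5, 10.6, 10.6 and 10.9 CPM in Control. The groups did not overlap, yet the log2 difference of −0.22 had an adjusted p from limma of 0.277. The authors' deposited table gives Nfatc1 −0.22 against the own Control (adjusted p-value 0.312) and −0.34 against the Controls of all lines (adjusted p-value 0.0114). The MEF2AD effect on Nfatc1 was smaller than the sum of the single effects by 0.59 on the log2 scale (95% interval 0.29 to 0.89; adjusted p from limma = 0.0731), and it differed from the MEF2D effect by 0.31 (0.07 to 0.55; adjusted p from limma = 0.522).

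**Figure D2:**
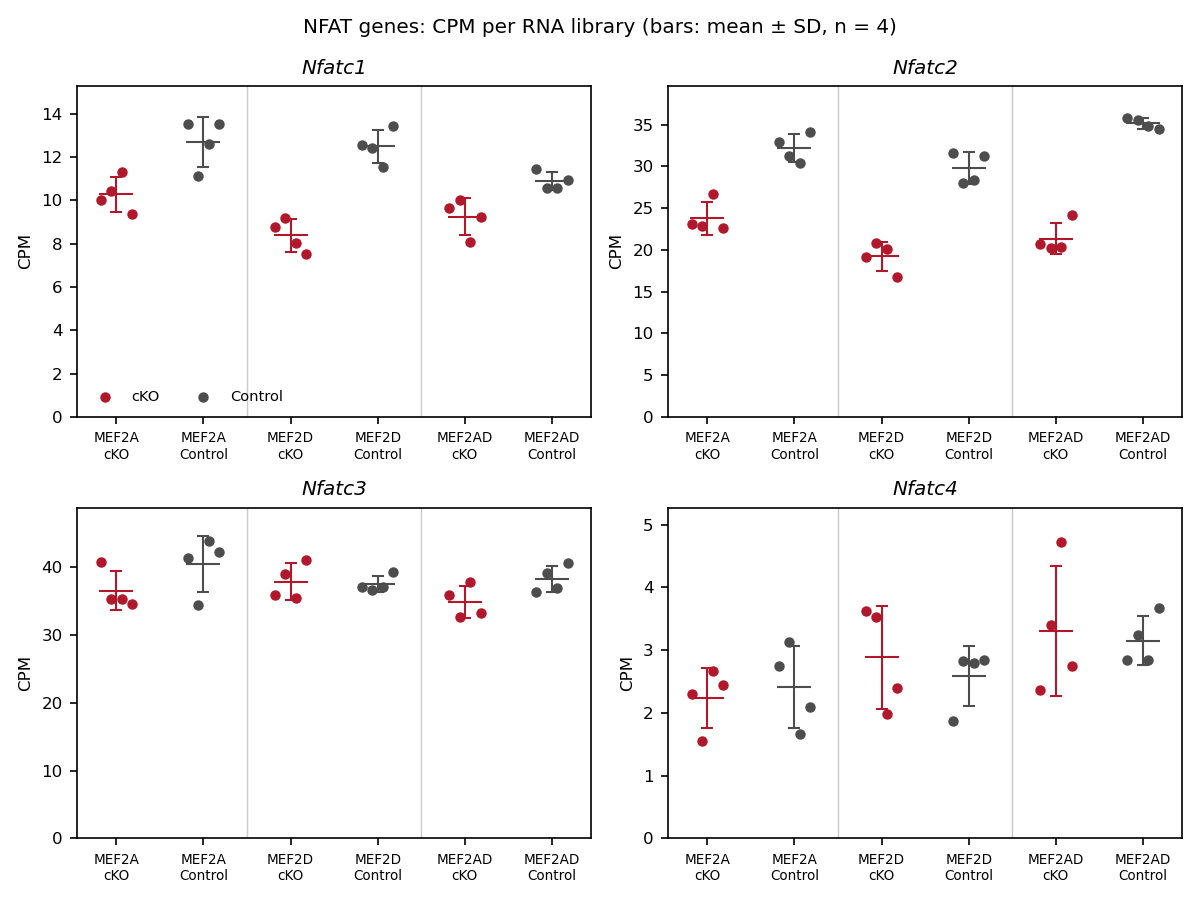
CPM of Nfatc1, Nfatc2, Nfatc3 and Nfatc4 (vertical axes) in the 6 RNA groups, cKO left of Control in each line; points are libraries (n = 4 per group) and bars are the mean and SD. Nfatc2 cKO points lie below all Control points in each line, between 16.8 and 26.7 CPM.

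Nfatc3, the NFAT member that is widely transcribed in brain, ranged from 34.6 to 40.8 CPM in MEF2A cKO, against 34.5 to 43.8 CPM in Control. It ranged from 35.4 to 41.1 CPM in the MEF2D cKO libraries, against 36.7 to 39.3 CPM in Control, and from 32.7 to 37.8 CPM in MEF2AD cKO, against 36.4 to 40.6 CPM in Control. The groups overlapped in each line, and the log2 differences were −0.14, 0.01 and −0.13 (adjusted p from limma = 0.662, 0.959 and 0.594). Nfatc4 was covered by 16 to 68 reads per library, or 1.55 to 4.72 CPM, with log2 differences of −0.07 (95% interval −0.43 to 0.29), 0.10 (−0.26 to 0.46) and 0.03 (−0.33 to 0.39), the widest intervals among the members.

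Of the calcineurin subunits, Ppp3cb (the beta catalytic subunit) had 248, 239, 237 and 250 CPM in the MEF2D cKO libraries, against 192, 218, 206 and 227 CPM in Control. The groups did not overlap, with every cKO library above the highest Control. The means were 243 ± 6.37 CPM in MEF2D cKO and 211 ± 15.3 CPM in Control (SD, n = 4 each), a log2 difference of 0.21 (95% interval 0.11 to 0.30; adjusted p from limma = 0.00799). Without the lowest Control library, replicate 1, the difference was 0.16 and the adjusted p from limma was 0.0501. In MEF2A cKO Ppp3cb averaged 226 ± 8.94 CPM, against 219 ± 3.23 CPM in Control, and in MEF2AD cKO 212 ± 6.06 CPM, against 202 ± 8.66 CPM (adjusted p from limma = 0.882 and 0.700).

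Ppp3r1 (the regulatory subunit that binds calcium) had 218, 219, 211 and 223 CPM in the MEF2D cKO libraries, against 171, 188, 189 and 209 CPM in Control. Again all cKO libraries lay above all Control libraries. The log2 difference was 0.20 (95% interval 0.09 to 0.32; adjusted p from limma = 0.0324). This call was kept in 2 of the 8 fits that left out 1 library of the line. It was lost without MEF2D cKO 1, 2 or 4 or without Control 1, 2 or 3, with an adjusted p from limma of 0.0692, 0.0689, 0.109, 0.160, 0.0664 and 0.0690. In MEF2A cKO Ppp3r1 averaged 219 ± 14.7 CPM, against 202 ± 8.36 CPM in Control, and in MEF2AD cKO 206 ± 12.2 CPM, against 199 ± 6.93 CPM.

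Ppp3ca, the alpha catalytic subunit and the main one in brain, averaged 876 ± 54.1 CPM in MEF2D cKO and 933 ± 31.8 CPM in Control (SD, n = 4 each; log2 difference −0.09, adjusted p from limma = 0.487). In MEF2AD cKO it averaged 929 ± 65.0 CPM, against 846 ± 75.8 CPM in Control, a log2 difference of 0.14 (adjusted p from limma = 0.489). In MEF2A cKO it averaged 960 ± 81.0 CPM, against 1004 ± 13.9 CPM in Control. For Ppp3cb the MEF2D effect exceeded the MEF2A effect by 0.16 (adjusted p from limma = 0.578), and for Ppp3r1 by 0.09 (adjusted p from limma = 0.864), so a difference between the lines was not shown for either.

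**Figure D3:**
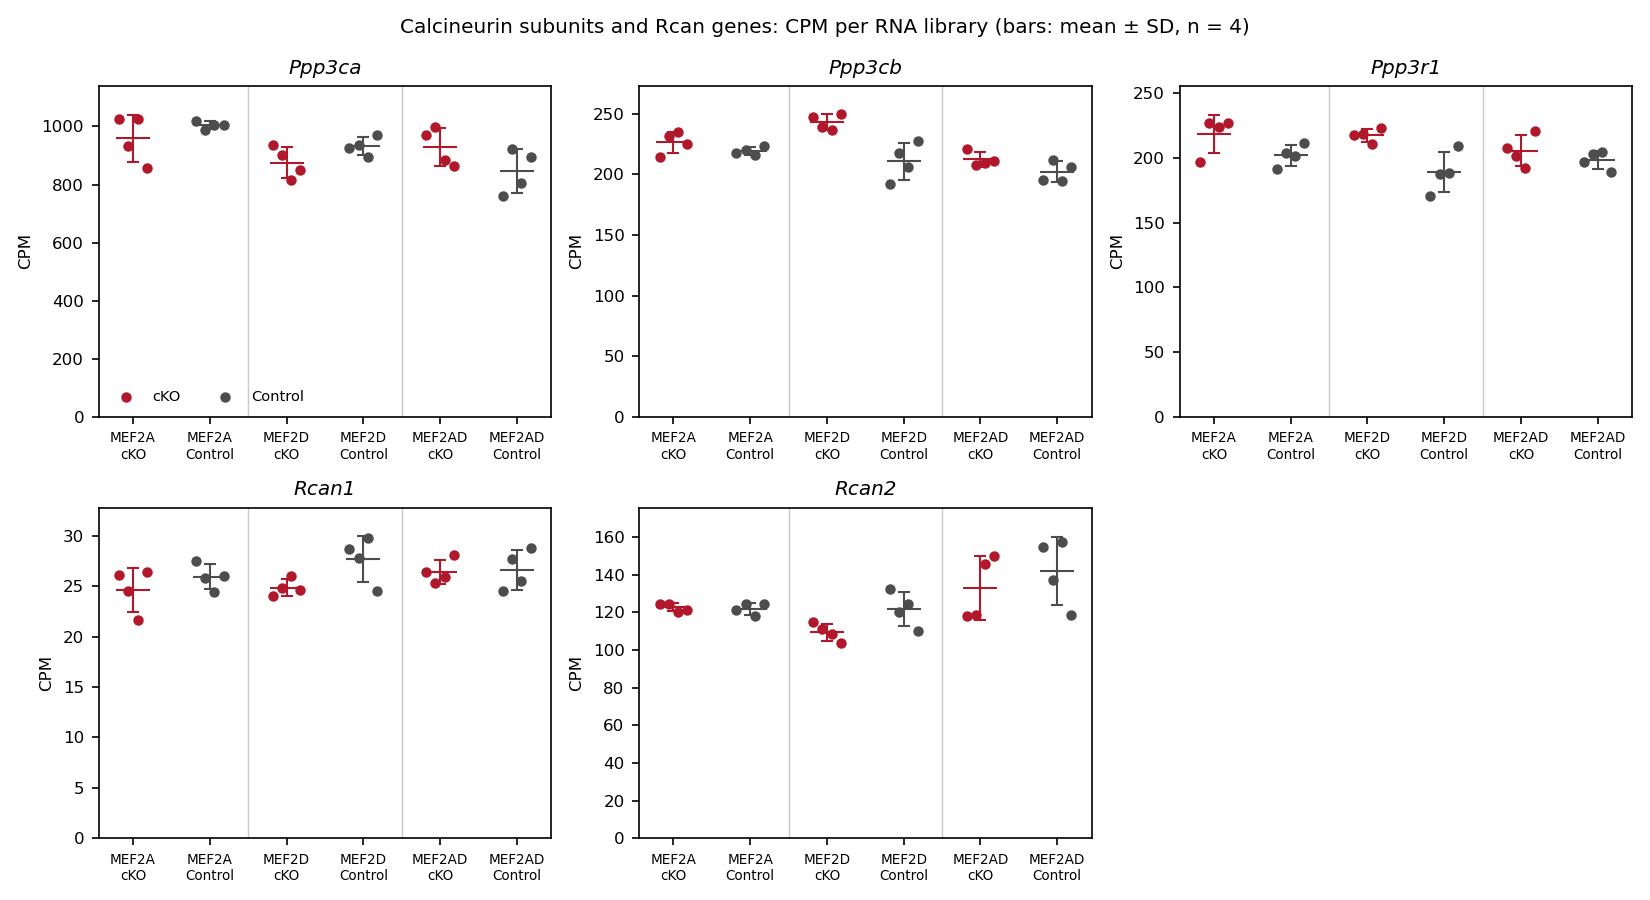
CPM of Ppp3ca, Ppp3cb, Ppp3r1, Rcan1 and Rcan2 (vertical axes) in the 6 RNA groups, cKO left of Control in each line; points are libraries (n = 4 per group) and bars are the mean and SD. For Ppp3cb the MEF2D cKO points, 237 to 250 CPM, lie above the MEF2D Control points.

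The inhibitors did not pass the test in any line. Rcan1 averaged 24.9 ± 0.804 CPM in MEF2D cKO and 27.7 ± 2.25 CPM in Control (SD, n = 4 each), a log2 difference of −0.15 (adjusted p from limma = 0.242). In MEF2A cKO and MEF2AD cKO its log2 differences were −0.07 and −0.01. Rcan2, the relative of Rcan1 that is abundant in brain, had 115, 111, 108 and 104 CPM in the MEF2D cKO libraries, against 132, 120, 124 and 110 CPM in Control. The groups overlapped and the log2 difference was −0.15 (adjusted p from limma = 0.306). Rcan2 had 118, 119, 146 and 150 CPM in MEF2AD cKO, against 155, 137, 157 and 118 CPM in Control, and 120 to 125 CPM in MEF2A cKO, against 118 to 125 CPM.

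Groups that did not overlap were counted as well. These were 1 member in MEF2A cKO, 4 in MEF2D cKO and 2 in MEF2AD cKO, where 3.72%, 13.6% and 6.15% of all genes did not overlap. Over the direct comparisons of the knockouts, limma called 0 of 9 members in each. Here 0.0388% of all genes were called for MEF2D minus MEF2A, 0.549% for MEF2AD minus MEF2A, 0.103% for MEF2AD minus MEF2D and 0.356% for MEF2AD minus the sum. At an unadjusted p under 0.05, 2, 2, 3 and 5 of the 9 members passed, where 7.25%, 7.01%, 7.32% and 10.3% of all genes did, and edgeR and DESeq2 called 0 in each.

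Marker levels in these groups were as follows. The summed CPM of 10 Purkinje cell markers lay between 7480 and 7918 in MEF2A cKO, against 8024 to 8777 in Control, and between 7285 and 8077 in MEF2D cKO, against 8096 to 8427 in Control, with 0 of 10 markers called in either. In MEF2AD cKO the sums were 6060 to 8142, against 6917 to 8440 in Control. Of 9 markers of interneurons and unipolar brush cells, Slc32a1 and Pax2 fell in MEF2D cKO, with sums of 1382 to 1504 CPM against 1443 to 1539 CPM in Control. The other lists, of glia, vessels, blood, choroid plexus and brainstem, gave no call in any line, although choroid plexus sums ran from 184 to 2817 CPM over the 24 libraries. The median log2 difference of the oligodendrocyte markers was −0.04, −0.15 and −0.20 in MEF2A, MEF2D and MEF2AD cKO. For choroid plexus it was 0.86, 0.35 and −0.58, and for Purkinje cells −0.08, −0.09 and −0.02. The sums of oligodendrocyte and of choroid plexus markers overlapped between cKO and Control in each line. The 3 measured of 10 brainstem markers summed to at most 6.58 CPM in MEF2AD cKO and 13.3 CPM in its Control, and to at most 0.149 CPM elsewhere. The part of these markers in the changes of Nfatc1, Nfatc2, Ppp3cb and Ppp3r1 was not tested.

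Peaks of the 2 factors were set against each gene, counted within 5000 bp of it. No MEF2A peak, of 203 in the deposited list, lay within this distance of any of the 9 members, against 123 of the 14841 genes with a RefSeq position. MEF2D peaks, of 1388, lay at 2 of 9 members, Nfatc2 and Rcan2, against 822 of those genes, or 5.54%. The counts at the members were the same at 0 and at 50000 bp. Over all genes, the share with a MEF2D peak was 4.66% at 0 bp and 12.3% at 50000 bp. For MEF2A peaks it was 0.681% and 1.85%. The window takes in the whole gene, and the share over all genes was not matched for gene length. Nfatc2 and Rcan2 span 125248 and 238165 bp, while Ppp3ca, the longest member at 268014 bp, had no peak. For the other members, the nearest MEF2D peak was 184270 bp away for Nfatc3, 476300 bp for Nfatc4 and 503889 bp for Ppp3ca. It was 1764059 bp away for Ppp3r1, 1836479 bp for Rcan1, 2077916 bp for Nfatc1 and 2264812 bp for Ppp3cb.

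The Nfatc2 peak is at chr2:168584860-168585101 (mm10, as the deposited files give it), inside the gene, 16677 bp downstream of its first start and 5385 bp downstream of the second. The Rcan2 peak is at chr17:43855218-43855419, inside a gene that spans 43801352 to 44039516 on the plus strand. It lies 53966 and 53467 bp downstream of its first 2 starts and 97681 bp upstream of the last. Both peaks are of the class written NC in the deposited table of 1419 sites, and neither was assigned to an exon or intron here.

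Acetylation at the Rcan2 peak was lower in MEF2AD cKO, although Rcan2 RNA did not pass the test in any line. H3K27ac is given in RPM, reads scaled to one library total as CPM is, and stood at 0, 0.0824 and 0 RPM in MEF2AD cKO, against 0.617, 0.534 and 0.115 in Control. The raw reads behind them were 0, 4 and 0, against 18, 16 and 1, and 3 reads, the limit that a count of 0 allows, would be 0.105 and 0.245 RPM in cKO libraries 1 and 3. The cKO libraries lay below the Control libraries, while Control library 3 lay below that limit of cKO library 3. The log2 difference from edgeR, scaled by TMM over the sites, was −2.90 (adjusted p from edgeR = 9.83e-05), a fitted size that rests on few reads. Without 1 library it ran from −6.23 to −2.37 and the call held in 6 of 6 fits. The lowest value came without MEF2AD cKO 2, the one cKO library with reads there, and is then set by the fit and no measure of size.

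In MEF2D cKO the Rcan2 peak had 0.0984, 0.111 and 0.0854 RPM, against 0.327, 0.439 and 0.343 in Control, on 2 reads per cKO library. The groups did not overlap, and the log2 difference of −1.53 had an adjusted p from edgeR of 0.0676. In MEF2A cKO it had 0.743, 0.598 and 1.16 RPM, against 0.508, 0.564 and 0.413 in Control, so the cKO libraries lay above the Control libraries. That log2 difference was 0.80 (adjusted p from edgeR = 0.629). Both inputs had 0 reads at the site, which allows up to 0.275 RPM in the MEF2AD cKO input and 0.306 RPM in the Control input. The authors' deposited table gives this site log2 fold changes of 0.83, −1.90 and −4.28 in MEF2A, MEF2D and MEF2AD cKO.

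The effects on the Rcan2 peak differed between lines in edgeR. The peak passed the count filter only in fits that held the MEF2A libraries, whose cKO group had the highest values there. Its test thus depended on the group where it was highest. Without the count filter the MEF2AD minus MEF2A and MEF2D minus MEF2A calls held. The MEF2AD effect minus the MEF2A effect was −3.70 (adjusted p from edgeR = 8.58e-05), a call kept in 12 of 12 fits without 1 library, with values from −7.03, without MEF2AD cKO 2, to −3.16. The MEF2D effect minus the MEF2A effect was −2.33 (adjusted p from edgeR = 0.0281), kept in 7 of 12. It was lost without MEF2A cKO 3, MEF2A Control 3, MEF2D cKO 1, MEF2D cKO 3 or MEF2D Control 2, with an adjusted p from edgeR of 0.0719, 0.0534, 0.0516, 0.0757 and 0.0843, and with DESeq2 (adjusted p = 0.0745). The MEF2AD and MEF2D effects differed by −1.36 (adjusted p from edgeR = 0.537), with values from −4.70, without MEF2AD cKO 2, to −0.83, without MEF2AD cKO 1.

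At the Nfatc2 peak, H3K27ac stood at 0.942, 1.03 and 1.31 RPM in MEF2AD cKO, against 1.95, 1.54 and 2.42 in Control. It stood at 0.935, 1.33 and 1.45 in MEF2D cKO, against 2.16, 1.98 and 2.19 in Control. Neither pair of groups overlapped. In MEF2A cKO it stood at 2.39, 1.70 and 1.48, against 2.14, 2.75 and 1.58 in Control, and the groups overlapped.

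The call at the Nfatc2 peak depended on the scaling. With TMM over the sites the log2 difference was −0.15 in MEF2A cKO, −0.40 in MEF2D cKO and −0.32 in MEF2AD cKO (adjusted p from edgeR = 0.910, 0.222 and 0.246). With library totals it was −0.75 in MEF2D cKO and −0.82 in MEF2AD cKO (adjusted p from edgeR = 0.0147 and 0.00328). Library totals also move the median of all sites to −0.08, −0.36 and −0.51 in MEF2A, MEF2D and MEF2AD cKO. The share of reads that fell in the sites was 0.464% to 0.482% in MEF2AD cKO, against 0.620% to 0.669% in Control, and 0.514% to 0.550% in MEF2D cKO, against 0.648% to 0.693% in Control. The input from MEF2AD cKO had 1 read at the site, or 0.0916 RPM, and the input from Control 7 reads, or 0.714 RPM. For this peak the authors' deposited table gives log2 fold changes of −0.17, −0.76 and −0.82 in MEF2A, MEF2D and MEF2AD cKO. It places the peak in site cluster 3.

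**Figure D4:**
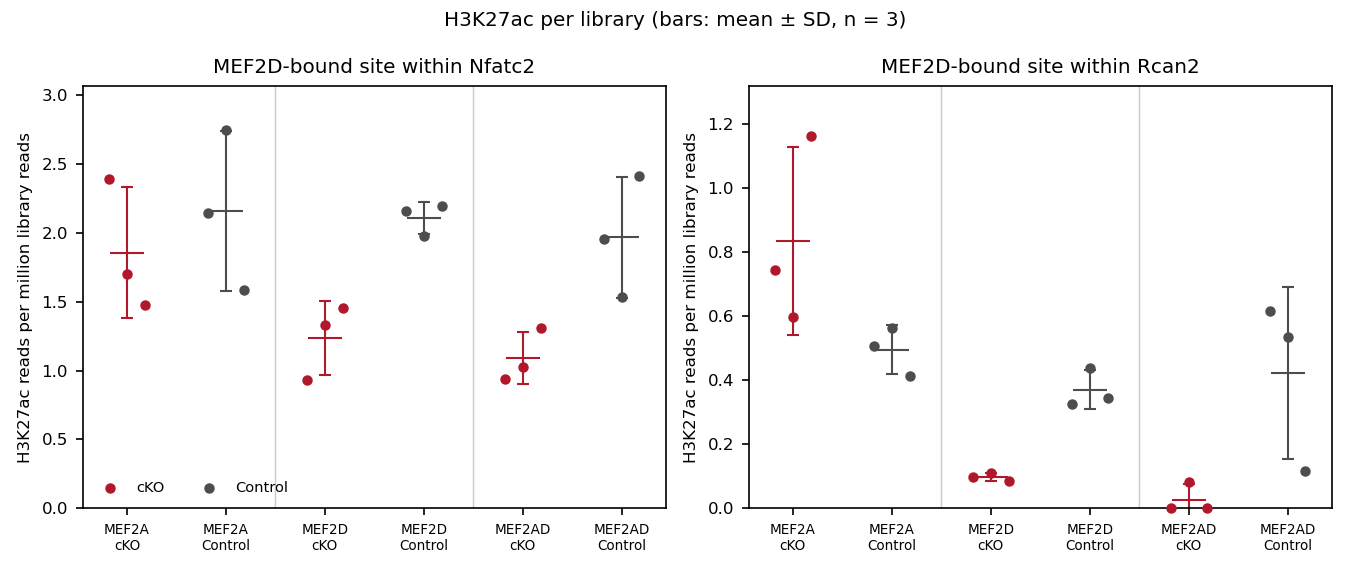
H3K27ac RPM (vertical axes) at the Nfatc2 and Rcan2 peaks in the 6 groups, cKO left of Control in each line; points are libraries (n = 3 per group) and bars are the mean and SD, with the lower SD of MEF2AD cKO at the Rcan2 peak cut at 0. The MEF2AD cKO libraries lie there at 0, 0.0824 and 0 RPM.

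Called sites give the background for these results. With TMM, edgeR called 0 of the 2 member sites in MEF2A cKO, where 0.0729% of 1372 sites were called, and 0 in MEF2D cKO, where 34.6% were called. At an unadjusted p under 0.05 these were 0 and 1 of the 2 sites, where 8.02% and 44.2% of all sites passed, and DESeq2 called 0 in each. In MEF2AD cKO it called 1 of 2, lower, where 63% of sites were called and 32.2% were lower. For the differences it called 1 of 2 for MEF2D minus MEF2A and 1 of 2 for MEF2AD minus MEF2A, both lower. There 18.6% and 45.4% of sites were called, and 12.5% and 26% of all sites were called lower. It called 0 of 2 for MEF2AD minus MEF2D, where 3.06% were called, 0 passed an unadjusted p under 0.05 against 17.1% of all sites, and DESeq2 called 0. With library totals both sites were called in MEF2D cKO and in MEF2AD cKO, where 41.8% and 57% of sites were called. TMM split the calls into 201 higher and 274 lower sites in MEF2D cKO and 423 higher and 442 lower in MEF2AD cKO, and library totals into 8 and 565 and into 28 and 753. By RPM, 47.9% of all sites in MEF2D cKO and 56.7% in MEF2AD cKO had cKO libraries wholly below Control, and 4.44% in MEF2A cKO had them wholly above.

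The other genes of the route, 52 in 6 lists of which 51 were measured, were called in few cases. limma called 0 of 51 in MEF2A cKO, where 6 passed an unadjusted p under 0.05, against 7.74% of all genes, and edgeR and DESeq2 called 0. It called 1 higher and 4 lower in MEF2D cKO, where 4.93% of all genes were called and edgeR and DESeq2 called 5 and 7 of the 51. There 17 of the 51 passed an unadjusted p from limma under 0.05, against 19% of all genes. In MEF2AD cKO limma called 1 lower, where 2.42% of all genes were called and edgeR and DESeq2 called 2 each. At an unadjusted p from limma under 0.05, 8 of the 51 passed there, against 9.94% of all genes. Over the 51 genes the median log2 difference was 0.00, −0.00 and 0.02 in MEF2A, MEF2D and MEF2AD cKO.

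Of 11 kinases that send NFAT out of the nucleus, Mapk8 (JNK1) rose in MEF2D cKO, at 114 ± 3.71 CPM against 97.1 ± 6.95 CPM in Control (SD, n = 4 each; log2 difference 0.23, adjusted p from limma = 0.00848). Of 12 genes for calcium entry and release, Stim1 (the calcium sensor of the endoplasmic reticulum) fell in MEF2D cKO, at 99.5 ± 5.60 CPM against 114 ± 1.34 CPM in Control (log2 difference −0.20, adjusted p from limma = 0.0151). That call was lost without MEF2D cKO 4 or Control 1 (adjusted p from limma = 0.0892 and 0.0506). The 9 measured regulators and partners of calcineurin, the other 2 subunits and Nfat5 gave no call, and the regulators had medians of 0.04, 0.12 and 0.02 in MEF2A, MEF2D and MEF2AD cKO.

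Of 16 calcineurin substrates, 3 fell in MEF2D cKO, where 2.33% of all genes were called lower, and 1 of them also in MEF2AD cKO, where 1.26% were. Ppp1r1a, an inhibitor of protein phosphatase 1, stood at 20.2 ± 1.15 CPM in MEF2D cKO against 29.9 ± 2.84 CPM in Control (log2 difference −0.54, adjusted p from limma = 0.0116), and the call was lost without MEF2D Control 1 (adjusted p from limma = 0.0514). In MEF2AD cKO it stood at 14.1 ± 1.33 CPM, against 26.8 ± 5.71 CPM in Control (−0.86, adjusted p from limma = 6.89e-05), and in MEF2A cKO at 34.6 ± 5.36 CPM, against 26.9 ± 3.81 CPM (0.35, adjusted p from limma = 0.425). Dnm1, the dynamin of synaptic vesicle retrieval, stood at 1218 ± 50.4 CPM in MEF2D cKO against 1447 ± 68.4 CPM in Control (adjusted p from limma = 0.00334). Crtc1, a coactivator of CREB, stood at 253 ± 9.80 CPM against 309 ± 12.2 CPM (adjusted p from limma = 0.0204), a call lost in 5 of 8 fits without 1 library, namely without MEF2D cKO 1, 2 or 4 or Control 1 or 3.

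**Figure D5:**
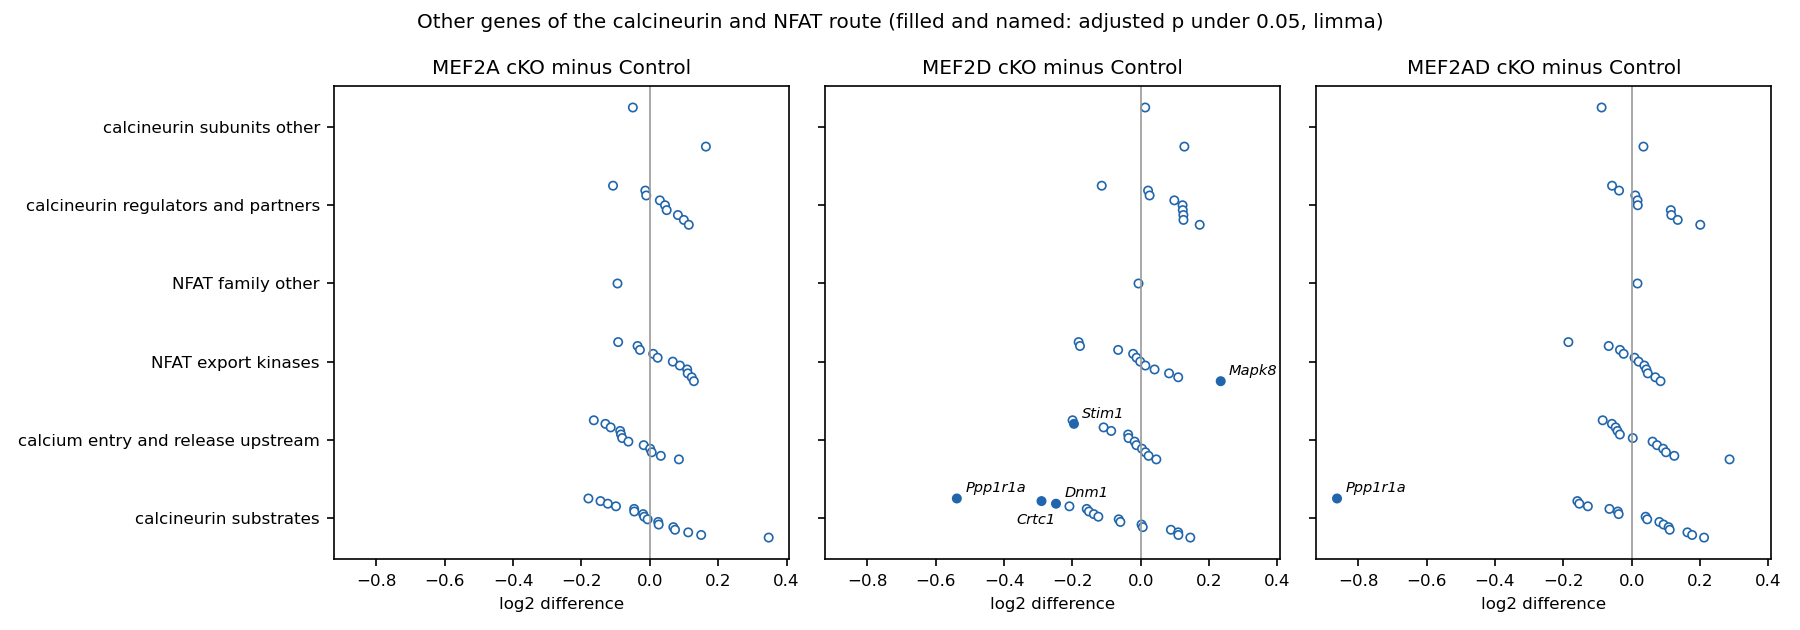
Log2 difference of CPM + 1 between each cKO group and its Control (horizontal axis) for the 51 measured genes of the 6 lists (vertical axis), one panel per knockout line; filled, named points have an adjusted p from limma under 0.05. Ppp1r1a is the farthest left in MEF2D cKO and in MEF2AD cKO, at −0.54 and −0.86.

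Genes whose RNA followed a called member most closely were found by Pearson's r over the 24 libraries, among 14665 genes, as a description. The values correlated were log2(CPM + 1) minus the mean of the Controls of the same line. All points share the libraries and the line they came from. Nfatc2 was closest to Dym (r = 0.943), Prom2 (r = 0.942) and Ap3m2 (r = 0.935), and Prom2 had log2 differences of −1.13, −1.74 and −1.55 in MEF2A, MEF2D and MEF2AD cKO. Nfatc1 was closest to Trim8 (r = 0.865), Fbxl16 (r = 0.860) and Dlgap4 (r = 0.858). Ppp3cb was closest to March7 (r = 0.943), Nsd2 (r = 0.919) and Mindy2 (r = 0.914), and Ppp3r1 to Gmfb (r = 0.895), Agps (r = 0.888) and Bzw1 (r = 0.841).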

How the data were processed

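RNA-seq and H3K27ac ChIP-seq of mouse cerebellum were used, with the deposited MEF2A and MEF2D peak lists. The submitters' processing notes name the tools Bowtie2 2.3.4.2, STAR 2.6 and MACS2 and the build mm10, without the role of any. The authors deposited RNA as log2 CPM per library with an offset of 0.5 reads. Whole reads could be recovered from 100% of the values (tolerance 0.05 reads). The table held 15560 entries, and 91 with an Ensembl identifier already seen were left out. The authors deposited H3K27ac as raw counts per site, with each library's total. The authors' deposited tables also hold log2 fold changes and adjusted p-values, printed only where named as such. Another 84 columns of per-library values were not used.

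The 9 members, the pathway lists and the marker lists were chosen with earlier results of these data known. The members are all named. Of the pathway lists, genes with an adjusted p under 0.05 in at least 1 cKO comparison are named, up to 4 per list by smallest p. For each called member, the 3 genes most like it are named.

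For RNA, limma-trend (limma 3.58.1 in R 4.3.3) was fitted on log2(CPM + 1) over all 24 libraries with 6 group means, no filter and Benjamini-Hochberg adjustment. Site counts went into the quasi-likelihood test of edgeR 4.0.16 after filterByExpr, with TMM factors from the sites. Errors beside CPM are SD over libraries. edgeR and DESeq2 1.42.0 on the recovered reads, other pseudocounts, filters and scalings, the replicate block and leaving out each library were alternatives. Intervals beside log2 differences come from the limma fit and rest on the spread between libraries. Limits from counts cover counting error only. The limma and edgeR fits were tested on simulated data.

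Titles number the replicates. In the MEF2A RNA line the same-numbered libraries of both groups deviated together (r = 0.404, 0.503, 0.240 and 0.197). The main fit has no block, so the p-values and intervals printed for MEF2A cKO leave this pairing out. Those printed for MEF2D cKO leave out the likeness seen there in replicates 2, 3 and 4 (r = 0.315, 0.202 and 0.233). Only the replicate block took the numbers as pairs. The block left every call of a member in MEF2A cKO as it was and raised the genes called there to 116, against 44 without it.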

Additional observations from a re-analysis of the deposited data

Results flagged for a closer look

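In 6 of 54 groups of 4 libraries, 1 library stood apart from the other 3, with a gap to the nearest library, as a share of the whole range of the group, above the critical value of Dixon's test for 4 values. Chance alone gives about 1 in 20 groups, or 2.7 here. For Nfatc2 these were MEF2AD cKO replicate 4, at 24.2 CPM with a gap share of 0.893, and MEF2A cKO replicate 3, at 26.7 CPM with a gap share of 0.883, both the highest of their groups and nearer to Control. For Nfatc3, MEF2A cKO replicate 1 was high at 40.8 CPM (gap share 0.877), and MEF2D Control replicate 4 was high at 39.3 CPM (gap share 0.845). For Nfatc4, MEF2D Control replicate 1 was low at 1.87 CPM (gap share 0.959), and for Ppp3r1, MEF2A cKO replicate 1 was low at 197 CPM (gap share 0.900).

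H3K27ac at the Rcan2 peak differed between lines by a direct test in edgeR, on 0 to 22 reads per library. The MEF2D effect lay 2.33 below the MEF2A effect on the log2 scale (difference −2.33). That call was lost in 5 of 12 fits without 1 library and with DESeq2. The MEF2AD effect also lay below the MEF2A effect (difference −3.70). The MEF2AD and MEF2D effects did not differ by the test (adjusted p from edgeR = 0.537). Of all sites, 12.5% were called lower for MEF2D minus MEF2A and 26% for MEF2AD minus MEF2A.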

How the results depend on the processing

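The count of members called in RNA was the same under every alternative setting run, except that fitting the 8 libraries of a line alone gave 0 in MEF2A cKO in place of 1. Leaving out 1 library gave 2 to 4 called members in MEF2D cKO and left the other RNA counts as they were. At the peaks, library totals gave 2 called sites in MEF2D cKO in place of 0 and 2 in MEF2AD cKO in place of 1. Fitting the groups compared alone gave 0 in MEF2AD cKO, since the Rcan2 peak fell under the count filter there. For the MEF2D minus MEF2A effect, DESeq2 gave 0 in place of 1, and leaving out 1 library gave 0 to 1. The MEF2AD minus MEF2D effect at the Nfatc2 peak was 0.08 and turned to −0.068 with library totals. The causes were not tested. Directions that turned when 1 library was left out belonged to values that did not pass the test. Their ranges were −0.028 to 0.042 for Nfatc3 in MEF2D cKO. For Nfatc4 they were −0.18 to 0.042 in MEF2A cKO, −0.0028 to 0.22 in MEF2D cKO and −0.12 to 0.14 in MEF2AD cKO. For Rcan1 in MEF2AD cKO the range was −0.047 to 0.028, and for Rcan2 in MEF2A cKO −0.0085 to 0.018. At the Nfatc2 peak it was −0.37 to 0.052 in MEF2A cKO, −0.37 to 0.058 for MEF2AD minus MEF2A and −0.072 to 0.21 for MEF2AD minus MEF2D.

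Counts over the whole table moved more. Of all genes, the groups compared alone gave 17 calls in MEF2A cKO in place of 44, 209 in MEF2AD cKO in place of 374, 12 for MEF2D minus MEF2A in place of 6, and 54 for MEF2AD minus MEF2A in place of 85. DESeq2 gave 16 for MEF2D minus MEF2A, 133 for MEF2AD minus MEF2A, 60 for MEF2AD minus MEF2D in place of 16, and 151 for the departure from the sum in place of 55. Leaving out 1 library gave 308 to 796 genes in MEF2D cKO in place of 762 and 23 to 52 in MEF2A cKO, with 25, 23 and 27 without MEF2A cKO 1, cKO 4 and Control 3. It gave 61 to 135 for MEF2AD minus MEF2A and 11 to 30 for MEF2AD minus MEF2D, both highest without MEF2AD cKO 4, and 26 to 104 for the departure from the sum, lowest without MEF2D cKO 4 and highest without MEF2AD cKO 4. Of the sites it gave 0 to 4 in MEF2A cKO and 13 to 53 for MEF2AD minus MEF2D, with 13, 17, 23 and 21 without MEF2D cKO 2, MEF2D Control 3, MEF2AD Control 1 and MEF2AD Control 2. Of all sites, MEF2A cKO had 1 call, with 0 from library totals and from DESeq2, 10 from the groups alone, 5 with the block and 13 without the shallow libraries MEF2AD cKO 3 and MEF2AD Control 3, a setting chosen after seeing the data. MEF2AD minus MEF2D had 42, with 80 from library totals, 25 from DESeq2 and 26 without those libraries.

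With the replicate block the members called stayed at 1, 4 and 1 in MEF2A, MEF2D and MEF2AD cKO, while all genes called came to 1385 in MEF2D cKO in place of 762 and 632 in MEF2AD cKO in place of 374. For the differences it gave 25, 195, 71 and 180 in place of 6, 85, 16 and 55. Outside the MEF2A RNA line a pairing by number was weaker or absent, or held for only some numbers. In the MEF2D RNA line replicates 2, 3 and 4 correlated best with the same number (r = 0.315, 0.202 and 0.233), but replicate 1 did not. In the MEF2AD RNA line replicates 2 and 3 did (r = 0.253 and 0.126). The lowest correlation of same-numbered libraries was 0.0649 in the MEF2D and −0.198 in the MEF2AD RNA line. It was 0.0857, 0.0197 and −0.00919 in the MEF2A, MEF2D and MEF2AD H3K27ac lines. Every number correlated best with itself in the MEF2A H3K27ac line (r = 0.142, 0.119 and 0.0857) but not in the other 4. The blocked fit changed no call of a member or of a member peak.

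Depth limits Nfatc4 in RNA and the Rcan2 peak in H3K27ac. The 2 shallow H3K27ac libraries had a median of 24 and 34 reads per site, against up to 117 in the others.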
